A study of Saccharomyces cerevisiae with 11 samples.

Results

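Loss of the cohesin loader subunit Scc2 was followed in budding yeast by comparing RNA from cells that carried an empty plasmid with RNA from cells that carried wild-type SCC2 on the same plasmid. The comparison takes 5 of the 11 RNA-seq libraries of the series, 2 cultures with the empty vector and 3 with plasmid SCC2 (WT), and uses all 6432 features that passed a filter on low values. The host of all these libraries was haploid W303 of mating type a, with a mutant LEU2 allele of the W303 background and the alleles ade2-1 of ADE2, trp1-1 of TRP1, can1-100 of CAN1 and his3-11,15 of HIS3. It expressed the plant F-box protein OsTIR1 from the ADH1 promoter of a URA3-marked plasmid (pMK200) at ura3-1, and its chromosomal SCC2 ended in an AID* degron and a 6FLAG tag marked by a hygromycin cassette (HYG). The plasmid was pRS413, which is kept by selection for HIS3, and the other 6 libraries of the series carried SCC2 with the R787G or the G1242V substitution. Cultures in medium without histidine were diluted to an OD600 near 0.1, received 1 mM of the auxin indole-3-acetic acid after 90 min, and were harvested 9 h later at an OD600 of 0.4 to 0.8. Control cells therefore carried the same degron, OsTIR1 and auxin exposure, and differed by the insert of the plasmid.

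Scc2 works with Scc4 to load cohesin, a ring of Smc1, Smc3, the kleisin Mcd1 (Scc1) and Irr1 (Scc3), onto chromosomes, where it also stimulates the ATPase of the ring. Cohesin holds sister chromatids together from S phase until separase cuts Mcd1 at anaphase, and it folds chromosome arms into loops. Auxin bridges OsTIR1 to the AID tag, which sends the tagged protein to the proteasome. The degron acts on the protein, so transcript of the tagged chromosomal gene remains in every culture and the amount of Scc2 protein was not measured. The design is 1 strain background with plasmid copies that may vary between cells, and the labels call the samples replicates without saying whether each was a separate transformant.

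Values are TPM, a length-corrected share of each library's transcripts, made by the authors with RSEM from 50 bp reads. They were brought here to a common scale by 1 factor per library, the median ratio to the average library among the 5221 genes that no library had under 10 TPM, and are called scaled TPM. Differences are empty vector minus WT on the log2(scaled TPM + 1) scale, given with their standard error, and a gene is said to have risen or fallen where limma, fitted across all features and all 11 libraries, gave a Benjamini-Hochberg adjusted p under 0.05. The added 1 understates the change of low genes. TPM keep no depth, so the read depth behind a value is unknown, and the p-values measure the spread between these cultures. TPM are also shares of each library, and fewer cells of a type cannot be told apart from less RNA per cell in bulk RNA.

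The libraries of each group lay close together, with 31 features at least 2-fold apart between the 2 empty vector libraries and 94, 81 and 73 between pairs of WT libraries. Ribosomal RNA took 9.2% of the TPM of WT library 2 and at most 0.525% of the other 4 libraries. Genes of chromosome I stood apart among the WT libraries. Relative to the WT mean, their median log2 level was 0.47 in WT 1, -0.43 in WT 2 and -0.014 in WT 3, against -0.46 and -0.51 in the empty vector libraries. The median difference of the 88 chromosome I genes was -0.48, against 0.062 for the 5700 nuclear coding genes elsewhere. Chromosome IX showed no such spread in these libraries. Its medians were -0.018 and -0.027 with the empty vector and -0.025, 0.027 and -0.00082 in WT, with a median difference of -0.022. Genes of chromosomes I and IX named below carry a second value from a fit in which chromosomes I and IX were centred within each library. The a-cell pheromone genes MFA1 and MFA2, which an a-type haploid transcribes, were present in every library, MFA1 at 57.6 and 71.1 scaled TPM in the empty vector libraries and 86.7, 64.5 and 65.4 in WT, and MFA2 at 178 and 168 against 228, 162 and 196. The labels give the density at harvest as a range over all cultures, and its part in the results was not tested.

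SCC2 itself stood at 23.9 and 22.5 scaled TPM in the empty vector libraries and 126, 101 and 108 in WT. The groups were far apart and the difference was -2.21 ± 0.14 (limma adjusted p = 2.34e-06). Transcripts of the plasmid and of the tagged chromosomal copy cannot be told apart in these values, and those left with the empty vector can only come from the chromosomal copy. The plasmid marker HIS3 was at 1036 and 832 scaled TPM in the empty vector libraries and 986, 639 and 869.9 in WT, with overlapping groups (0.18 ± 0.21, limma adjusted p = 0.47). The partner subunit of Scc2, encoded by SCC4, fell (-0.51 ± 0.074, limma adjusted p = 2.25e-04), from 33.3, 33.4 and 28.9 scaled TPM in WT to 22.4 and 21.5. Of the other genes named in the genotype, the empty vector libraries were lower in ADE2 (-1.38 ± 0.063), LEU2 (-0.998 ± 0.14), CAN1 (-0.95 ± 0.075), URA3 (-0.85 ± 0.24) and TRP1 (-0.36 ± 0.10).

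Most features differed between the groups. limma called 3987 of the 6432 features, which is 62.0%, with 2366 higher (36.8%) and 1621 lower (25.2%) in the empty vector libraries. Most calls were small: 2917 of them were under 2-fold, while 686 features (10.7%) were at least 2-fold higher and 384 (5.97%) at least 2-fold lower. Changes of at least 4-fold were reached by 92 features upward and 70 downward. The 2 empty vector libraries lay wholly outside the 3 WT libraries in 4796 features (74.6%). The counts of each gene group below stand against these shares and against a median difference of 0.089 over all features. That median depends on the scaling. Without scaling it was 0.31, and it was 0.32 with each library rescaled to its coding genes; 78.3% and 78.5% of the calls were then higher, in place of 59.3%. After quantile normalization 51.3% were higher. A group or gene with a difference near this shift can change its direction with the scaling, and this is said where it happens.

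**Figure D1:**
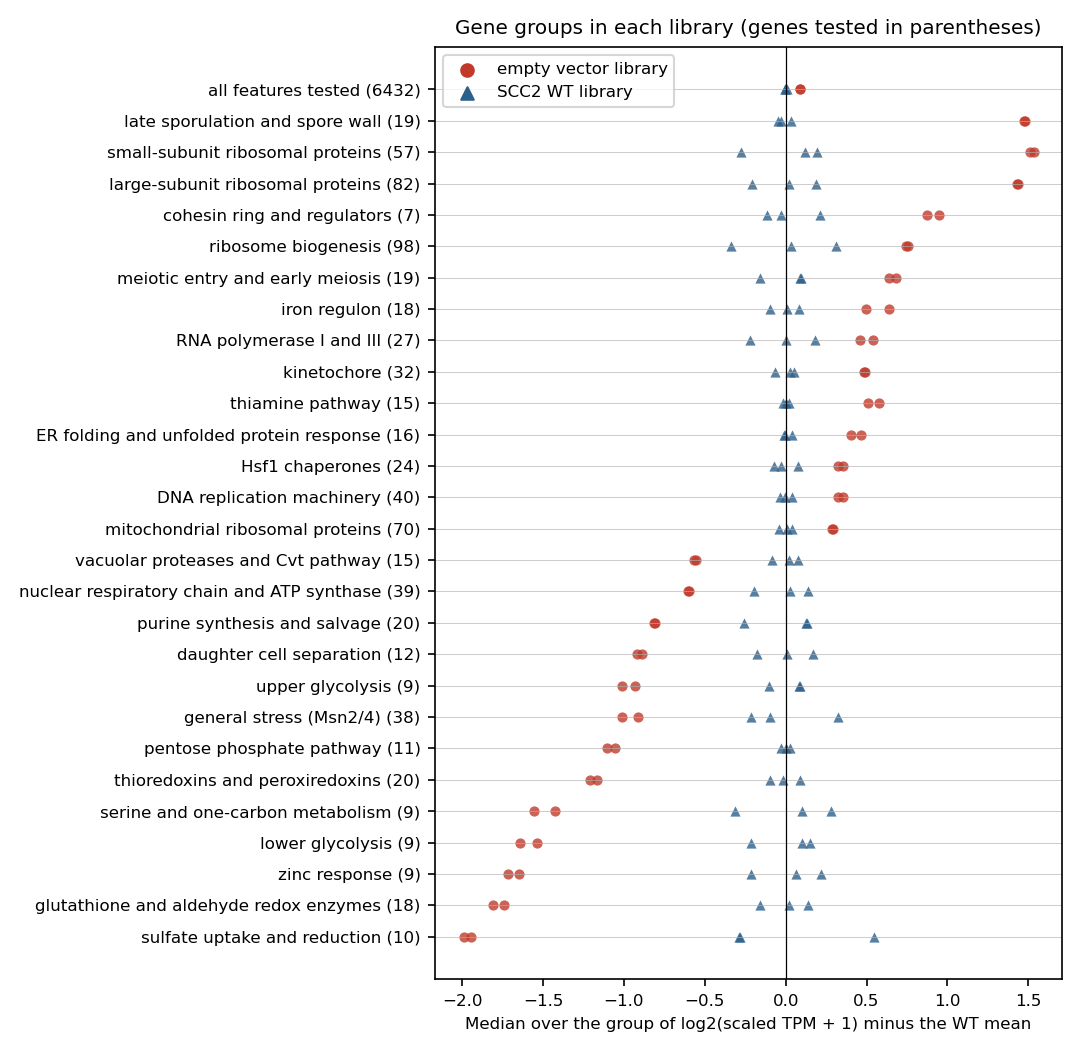
Median log2 level of gene groups in each of the 5 libraries relative to the mean of the WT libraries; circles are empty vector libraries and triangles WT libraries. Ribosomal protein genes sit above the WT libraries, and sulfate, zinc, redox and glycolytic genes below them.

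Genes of the cohesin ring rose together. All 7 tested ring and regulator genes were higher with the empty vector, with a median difference of 0.91. SMC3 went to 32.7 and 32.2 scaled TPM from 14.3, 12.7 and 13.6 in WT, without overlap (1.20 ± 0.11, limma adjusted p = 1.31e-05). SMC1, the other ATPase arm, stood at 52.2 and 49.99 against 20.7, 23.1 and 27.6 (1.08 ± 0.10, limma adjusted p = 1.83e-05). The kleisin MCD1 (0.77 ± 0.11), the HEAT-repeat subunit IRR1 (0.86 ± 0.16) and its neighbour on the ring PDS5 (0.91 ± 0.10) rose by similar amounts, and IRR1, on chromosome IX, was 0.97 with that chromosome centred. ECO1, the acetyltransferase that locks cohesion on Smc3, rose (0.96 ± 0.12), while RAD61 (Wapl), which releases the ring, rose least (0.38 ± 0.11). Of the related condensin subunits, YCS4 (0.68 ± 0.10), YCG1 (0.64 ± 0.072), SMC2 (0.37 ± 0.082) and BRN1 (0.34 ± 0.13) rose, and SMC4 fell slightly (-0.20 ± 0.070), a direction that turned to 0.021 without scaling and 0.024 with coding genes rescaled. In the Smc5/6 complex, 4 of 8 genes rose, namely SMC6 (1.14 ± 0.092), MMS21 (0.94 ± 0.12), SMC5 (0.85 ± 0.063) and NSE4 (0.78 ± 0.095).

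Mitotic genes that guard cohesion were also higher. Securin, which holds separase in check, is encoded by PDS1 and stood at 22.9 and 21.3 scaled TPM in the empty vector libraries and 7.81, 11.5 and 10.9 in WT (1.07 ± 0.14, limma adjusted p = 1.32e-04). Of the securin, separase and spindle checkpoint list, 9 of 13 genes rose and 0 fell. They include the Aurora kinase IPL1 (0.95 ± 0.074), its partner SLI15 (0.79 ± 0.10) and the checkpoint kinase BUB1 (0.88 ± 0.089). Among kinetochore genes, 20 of 32 rose and 3 fell. The Ndc80 complex subunit SPC24 (1.15 ± 0.11) and the centromere proteins MIF2 (1.07 ± 0.11) and CTF3 (1.06 ± 0.092) were at the upper end, and ASK1 of the Dam1 ring (-0.63 ± 0.067) and IML3 (-0.52 ± 0.065) at the lower end.

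In the DNA replication list, 27 of 40 genes rose and 3 fell, with a median log2 difference of 0.33. POL30, which encodes the sliding clamp PCNA, stood at 88.3 and 90.6 scaled TPM in the empty vector libraries and 23.1, 25.8 and 36.1 in WT (1.65 ± 0.20, limma adjusted p = 7.64e-05). CDC45 of the replicative helicase went from 9.68, 10.9 and 10.6 in WT to 31.8 and 29.9 (1.48 ± 0.11, limma adjusted p = 4.23e-06). Both genes were higher in each empty vector library than in any WT library. MCM5 (0.94 ± 0.11) and the ligase CDC9 (0.79 ± 0.084) rose, and the origin recognition subunits ORC5 (-1.05 ± 0.10) and ORC6 (-0.29 ± 0.085) fell. At the fork, where cohesion is established, the clamp loader subunit CTF18 rose (1.04 ± 0.13) and CTF8, of the same alternative clamp loader, fell (-0.71 ± 0.10). Matches to the MCB motif (ACGCGT, bound by the MBF factor of S-phase genes) lay within 500 bp upstream of 20 of 40 replication genes, against 5.51% of all promoters. The S-phase cyclin CLB6 (1.19 ± 0.22) and the MBF co-repressor NRM1 (0.94 ± 0.17) rose while the G1 cyclin CLN2 fell (-0.60 ± 0.19).

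The list of ribonucleotide reductase and DNA damage genes did not move as 1 group, with 8 of 16 up and 6 down. HUG1, an inhibitor of ribonucleotide reductase that is strongly induced by damage, stood at 53.9 and 55.9 scaled TPM in the empty vector libraries and 3.28, 6.16 and 5.33 in WT. The 5 libraries separated cleanly (3.27 ± 0.24, limma adjusted p = 4.42e-06). RNR3, the damage-inducible large subunit, rose (1.17 ± 0.13), or 1.27 with its chromosome IX centred, as did RNR1 (0.94 ± 0.16) and DIN7 (1.24 ± 0.14). The small subunit RNR2 (-0.47 ± 0.062), the inhibitor SML1 (-0.53 ± 0.071) and the stress genes DDR48 (-1.42 ± 0.18) and DDR2 (-1.19 ± 0.26) fell.

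Genes transcribed at the exit from mitosis were lower. Daughter cells separate from their mothers with enzymes that cut the septum, and 10 of 12 genes of this list fell. DSE2, a daughter-specific secreted protein, stood at 61.2 and 56.96 scaled TPM in the empty vector libraries and 202, 152 and 245 in WT (-1.71 ± 0.20, limma adjusted p = 6.60e-05). The glucanase SCW11 fell from 71.7, 54.2 and 63.9 to 25.5 and 24.03 (-1.31 ± 0.13, limma adjusted p = 1.86e-05), and neither gene overlapped between groups. The chitinase CTS1 (-1.02 ± 0.20), EGT2 (-1.29 ± 0.14), DSE4 (-1.22 ± 0.13) and the daughter-specific repressor ASH1 (-0.68 ± 0.12) fell too. CHS1, the chitin synthase that repairs the wall after separation, was the exception and rose (1.32 ± 0.071, limma adjusted p = 9.37e-07), at 211 and 214 scaled TPM against 87.2, 86.8 and 79.3. In the G2/M list 2 of 13 genes rose and 1 fell, or 7 rose without scaling, and its median of 0.019 was -0.011 after quantile normalization. The spindle midzone gene ASE1 accounted for the fall (-1.16 ± 0.077). Of 10 histone genes 4 fell, among them HTA1 (-0.78 ± 0.23) and HTB1 (-0.66 ± 0.11), and the variant gene HTZ1 rose (0.43 ± 0.10). The median of the histone list, -0.19, was 0.041 without scaling and 0.043 with coding genes rescaled, and near-identical histone gene pairs share 50 bp reads.

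Ribosomal protein genes rose almost uniformly. Of 139 cytosolic ribosomal protein genes, 133 rose and 1 fell, with a median of 1.45; all 57 small-subunit genes rose. Together they took 8.44% and 8.56% of the nuclear protein-coding TPM in the empty vector libraries and 3.08%, 2.58% and 2.81% in WT, so their share was 3.01 times as large. RPL9A stood at 191 and 197 scaled TPM in the empty vector libraries and 44.1, 29.4 and 42.8 in WT (2.32 ± 0.23, limma adjusted p = 2.53e-05). RPS24A went to 604 and 645 from 169.6, 121 and 169.7 (2.03 ± 0.19, limma adjusted p = 1.60e-05). Both were well above all WT libraries, and RPL21A (2.13 ± 0.19), RPL39 (2.09 ± 0.14), RPL24A (2.09 ± 0.21), RPS31 (2.07 ± 0.21) and RPS22A (2.05 ± 0.25) rose by about as much. The 1 gene that fell was RPL10 (-0.60 ± 0.15, limma adjusted p = 0.00613), at 1349 and 1419 against 2524, 1844 and 1968. Most of these genes exist as near-identical pairs, and the authors' counting may have split reads between copies.

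Rap1 is the factor that marks ribosomal protein promoters, and 36 of 82 large-subunit and 18 of 57 small-subunit promoters held a match to a short form of its motif (ACCCNNACA) within 500 bp upstream of the start codon, on either strand, against 5.49% of all 5788 promoters. The stretches around the match in the promoters of RPL9A and RPS24A are shown because these genes had a large rise in each subunit and hold a match. They are read from the S288C reference (sacCer3, R64), 5′ to 3′ on the strand of the gene, with 30 bases on each side and the match in capitals; in RPL9A the motif lies on the opposite strand and reads as its reverse complement.
RPL9A (chrVII:228601-228669, minus strand): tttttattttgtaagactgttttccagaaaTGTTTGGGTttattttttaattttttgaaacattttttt
RPS24A (chrV:305957-306025, plus strand): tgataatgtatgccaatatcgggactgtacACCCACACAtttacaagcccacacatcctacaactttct
The window, the motifs and the stretches were chosen with results known, and W303 may differ from S288C in a base. A match is a description of the letters and no evidence of binding.

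Ribosome assembly genes rose with them. Of 98 ribosome biogenesis genes 88 rose and 1 fell, with a median of 0.75, and they held 1.20% and 1.18% of the nuclear protein-coding TPM in the empty vector libraries and 0.726%, 0.653% and 0.459% in WT. NOP13, a nucleolar RNA-binding protein, stood at 70.1 and 68.04 scaled TPM in the empty vector libraries and 30.5, 23.5 and 22.4 in WT (1.42 ± 0.16, limma adjusted p = 5.65e-05). The pre-rRNA processing factors RRP1 (1.41 ± 0.16), KRR1 (1.36 ± 0.17) and LTV1 (1.27 ± 0.19) were close to it, and the kinase gene RIO1 was the 1 that fell (-0.21 ± 0.078), although it was 0.013 without scaling and 0.015 with coding genes rescaled. The PAC element (GCGATGAG) was found upstream of 56 of 98 of these genes and the RRPE element (AAAAATTTT) upstream of 67 of 98, against 5.01% and 9.73% of all promoters. The 3 assembly genes with the largest rise that hold a PAC match had it in a similar place, between 93 and 113 bases before the start codon.
NOP13 (chrXIV:308676-308743, minus strand): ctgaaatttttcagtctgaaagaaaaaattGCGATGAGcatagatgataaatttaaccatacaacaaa
RRP1 (chrIV:618390-618457, minus strand): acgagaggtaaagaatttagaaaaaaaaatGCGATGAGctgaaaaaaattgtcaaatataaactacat
KRR1 (chrIII:23445-23512, minus strand): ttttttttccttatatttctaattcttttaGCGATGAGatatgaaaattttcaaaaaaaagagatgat
Capitals mark the PAC match.

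Of the RNA polymerase I and III genes, 17 of 27 rose, with the polymerase I subunit RPA49 (0.99 ± 0.19) and the initiation factor RRN3 (0.90 ± 0.15) among them. This count was 11 without the second empty vector library. The regulators of these genes were split. SFP1 (-0.77 ± 0.080), an activator of ribosomal genes, the repressors CRF1 (-0.85 ± 0.24) and STB3 (-0.64 ± 0.086), and HMO1 (-0.51 ± 0.085) fell, and the co-activator IFH1 (0.31 ± 0.11) and the PAC-binding repressor TOD6 (0.93 ± 0.23) rose. Translation initiation factors rose in 11 of 25 cases, a count that was 20 without scaling, 5 without the first or the second empty vector library, 18 without WT library 1 and 7 without WT library 3. Of 11 elongation factor genes 2 rose and 2 fell. EFT2, a copy of the gene for elongation factor 2, rose (0.63 ± 0.18) and CAM1, of the elongation factor 1 complex, fell (-0.57 ± 0.065). Mitochondrial ribosomal protein genes rose in 38 of 70 cases, with a median of 0.30; the count was 58 without scaling, and the median is close to the shift that other scalings give to all features.

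**Figure D2:**
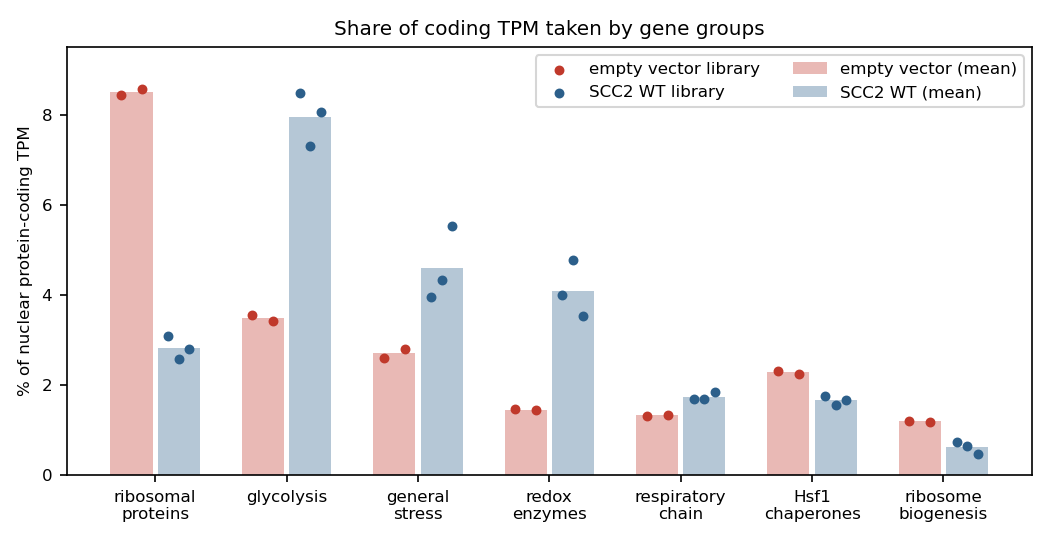
Share of the nuclear protein-coding TPM taken by gene groups in each of the 5 libraries, in percent; points are libraries and bars the group means. Ribosomal protein genes held above 8% in both empty vector libraries and below 4% in the 3 WT libraries, and glycolysis the reverse order.

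Glycolytic genes fell at nearly every step. In lower glycolysis 8 of 9 genes fell (median -1.60) and in upper glycolysis 6 of 9 (median -0.97). The list of glycolytic enzymes took 3.55% and 3.42% of the nuclear protein-coding TPM in the empty vector libraries and 8.48%, 7.29% and 8.06% in WT. TDH1, a glyceraldehyde-3-phosphate dehydrogenase, stood at 384 and 394 scaled TPM in the empty vector libraries and 5127, 4586 and 5769.6 in WT. That is a drop in both libraries far below each WT library (-3.72 ± 0.21, limma adjusted p = 1.17e-06), while its near copies TDH2 (-1.80 ± 0.15) and TDH3 (-0.57 ± 0.13) fell less. The aldolase FBA1, among the most abundant transcripts, went from 13362, 11804 and 13716 to 3782 and 3820.3 (-1.77 ± 0.13, limma adjusted p = 5.40e-06). Enolase ENO1 (-2.30 ± 0.15), phosphoglycerate kinase PGK1 (-1.63 ± 0.14), phosphoglucose isomerase PGI1 (-1.05 ± 0.090) and glucokinase GLK1 (-1.60 ± 0.18) fell, and the pyruvate kinase CDC19, on chromosome I, fell (-1.60 ± 0.31), or -1.03 with that chromosome centred. The hexokinase HXK1 was the 1 gene of both lists that rose (0.85 ± 0.13).

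Sugar uptake genes changed in both directions. HXT1, the low-affinity transporter induced by high glucose, stood at 63.3 and 65.2 scaled TPM in the empty vector libraries and 517, 492 and 431 in WT (-2.88 ± 0.14, limma adjusted p = 8.14e-07). HXT2, a transporter of moderately high affinity that is induced at low glucose, was at 156 and 169 scaled TPM with the empty vector and 11.9, 14.8 and 9.29 with WT (3.67 ± 0.24, limma adjusted p = 2.74e-06). The 2 transporters thus changed rank, with no overlap in either. HXT6 rose (3.12 ± 0.28), although it shares reads with its near copy HXT7, and the repressor of transporter genes RGT1 rose (1.32 ± 0.11), while HXT3 (-1.13 ± 0.087) and HXT5 (-2.01 ± 0.29) fell. Of 16 genes in this list 8 rose and 5 fell; its median of 0.37 was -0.042 after quantile normalization. Glucose-repressed genes were split in the same way, with 5 up, such as ICL1 of the glyoxylate cycle (0.98 ± 0.061) and the lactate transporter JEN1 (0.995 ± 0.16), and 5 down, such as MLS1 (-0.77 ± 0.15); their median of -0.012 was 0.21 without scaling and 0.21 with coding genes rescaled.

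Fermentation and pentose phosphate genes mostly fell, and storage carbohydrate genes went both ways. Of 10 fermentation genes 7 fell, among them the pyruvate decarboxylase PDC1 (-0.60 ± 0.11), which was 0.20 after quantile normalization, the mitochondrial aldehyde dehydrogenase ALD4 (-2.10 ± 0.14) and ADH4 (-2.42 ± 0.37), whereas PDC5 (1.25 ± 0.21) and ADH2 (1.76 ± 0.31), an alcohol dehydrogenase repressed by glucose, rose. The glycerol enzyme GPD1 fell (-2.21 ± 0.11). In the pentose phosphate pathway, the source of NADPH, 8 of 11 genes fell, and ZWF1, its first enzyme, stood at 249 and 237 scaled TPM in the empty vector libraries and 566, 629 and 489 in WT (-1.20 ± 0.10, limma adjusted p = 1.03e-05). The stress-induced isoform GND2 fell (-2.20 ± 0.28), while the main isoform GND1 did not pass the test (-0.23 ± 0.11, limma adjusted p = 0.0818). Trehalose and glycogen genes fell in 9 and rose in 5 of 18 cases, with falls of NTH2 (-2.02 ± 0.15) and TPS1 (-1.14 ± 0.14), and the glycogen synthase GSY1 rose (1.42 ± 0.16) where its paralog GSY2 fell (-1.04 ± 0.15).

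Nuclear genes of the respiratory chain and ATP synthase fell in 33 of 39 cases and rose in 0, with a median of -0.60. QCR10 of complex III stood at 160.5 and 179 scaled TPM in the empty vector libraries and 396, 450.4 and 489 in WT (-1.38 ± 0.10, limma adjusted p = 3.77e-06), and COX8 (-1.22 ± 0.10), SDH2 (-1.19 ± 0.10) and QCR6 (-1.13 ± 0.10) fell by similar amounts. Of the 8 proteins encoded by mitochondrial DNA, COX1 was the 1 that passed the test (-0.48 ± 0.095), and it was 0.35 after quantile normalization. Their median of -0.15 was 0.082 without scaling and 0.084 with coding genes rescaled and 0.32 after quantile normalization, and after quantile normalization 4 rose and 1 fell, so they have no direction that holds across scalings.

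Genes against oxidants and electrophiles fell strongly. All 20 thioredoxin and peroxiredoxin genes fell (median -1.19), as did 16 of 18 glutathione and aldehyde redox genes (median -1.77). As a group these took 1.46% and 1.44% of the nuclear protein-coding TPM in the empty vector libraries and 3.98%, 4.77% and 3.52% in WT. GTT2, a glutathione transferase, stood at 85.8 and 87.2 scaled TPM in the empty vector libraries and 1528, 1613 and 1257 in WT (-4.06 ± 0.36, limma adjusted p = 1.23e-05). The peroxiredoxin TSA2 went from 450.5, 643 and 548 to 33.5 and 36.97 (-3.91 ± 0.30, limma adjusted p = 5.54e-06). Neither gene had a value between the groups, and the 2 empty vector libraries were nearly equal. The superoxide dismutase SOD1, an abundant transcript, fell from 2704, 2487 and 2323 to 554 and 539 (-2.19 ± 0.087, limma adjusted p = 2.77e-07). GSH1, which makes the first step of glutathione synthesis, fell from 556, 616 and 601 to 89.3 and 84.5 (-2.75 ± 0.24, limma adjusted p = 1.18e-05). The glutathione transferase gene ECM4 (-3.76 ± 0.29), the aryl-alcohol dehydrogenase AAD4 (-3.55 ± 0.42), the sulfiredoxin SRX1 (-3.14 ± 0.36), the reductase GRE2 (-2.72 ± 0.20) and SOD2 (-2.06 ± 0.10) followed, and GTO3 was the 1 gene of both lists that rose (0.35 ± 0.13), though it was -0.40 after quantile normalization. AAD4 shares sequence with other AAD genes.

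Transporters that export drugs and metals fell as well, in 12 of 17 cases. YHK8, a putative drug transporter, had the largest fall of any gene named here, from 374, 428 and 251 scaled TPM in WT to 16.2 and 15.8 (-4.34 ± 0.28, limma adjusted p = 2.62e-06). FLR1, an exporter of drugs, stood at 240.4 and 216 scaled TPM in the empty vector libraries and 2419, 3015 and 1949 in WT (-3.40 ± 0.30, limma adjusted p = 1.19e-05). The vacuolar glutathione-conjugate pump YCF1 (-2.09 ± 0.19), ATR1 (-2.33 ± 0.12) and the arsenite exporter ARR3 (-2.45 ± 0.27) fell, while PDR10 rose a little (0.43 ± 0.076).

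Yap1 is the factor that switches on many genes of this defence, and a common form of its element (TTACTAA) stood upstream of 9 of 17 glutathione and aldehyde, 8 of 17 efflux and 8 of 20 thioredoxin promoters. Among all promoters 11.9% held a match, among genes at least 2-fold lower 23.8%, and among those at least 4-fold lower 44.8%. Within the efflux list the median difference was -1.95 with a match and -0.39 without. The stretches of the 5 genes with the largest falls that hold a match are shown, with the element in capitals; in YHK8, TSA2 and AAD4 it lies on the opposite strand and reads as its reverse complement.
YHK8 (chrVIII:204388-204454, plus strand): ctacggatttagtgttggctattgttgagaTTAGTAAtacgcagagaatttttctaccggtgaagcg
GTT2 (chrXII:21901-21967, minus strand): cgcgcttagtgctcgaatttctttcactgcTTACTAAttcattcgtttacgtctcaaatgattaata
TSA2 (chrIV:1366099-1366162, minus strand): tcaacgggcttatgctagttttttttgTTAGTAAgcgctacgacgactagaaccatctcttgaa
ECM4 (chrXI:582074-582140, plus strand): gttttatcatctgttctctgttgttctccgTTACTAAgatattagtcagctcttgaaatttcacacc
AAD4 (chrIV:18886-18952, minus strand): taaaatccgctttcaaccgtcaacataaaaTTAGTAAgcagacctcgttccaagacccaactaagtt
TSA2 has fewer bases before its match because the window starts there. The element ended between 91 and 466 bases before the start codon.

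All 10 genes that take up sulfate and reduce it to sulfide fell, with a median of -1.97. SUL2, a sulfate permease, stood at 19.8 and 20.9 scaled TPM in the empty vector libraries and 161, 181 and 265 in WT (-3.22 ± 0.49, limma adjusted p = 3.02e-04). MET16, the PAPS reductase, went from 477, 554 and 625 to 76.5 and 77.5 (-2.82 ± 0.31, limma adjusted p = 4.13e-05), and the ATP sulfurylase MET3 from 496, 471 and 933 to 105 and 105 (-2.51 ± 0.52, limma adjusted p = 0.00206). The third WT library was the highest of the 5 in each of these genes, and the empty vector libraries were below all of WT. The remaining members, MET5 (-2.13 ± 0.35), MET8 (-1.98 ± 0.40), MET14 (-1.95 ± 0.53), MET1 (-1.61 ± 0.38), MET22 (-1.54 ± 0.23), SUL1 (-1.42 ± 0.33) and MET10 (-1.39 ± 0.31), fell by between 1.39 and 2.13 on the log2 scale. Of the methionine and S-adenosylmethionine genes 10 of 17 fell, including MET2 (-1.79 ± 0.35), the cysteine synthesis gene CYS4 (-1.76 ± 0.15) and CYS3 on chromosome I, which fell (-1.95 ± 0.24) and was -1.39 with the chromosome centred. The activator gene MET28 fell (-2.12 ± 0.35), or -2.01 with its chromosome IX centred, and MET31, another regulator, rose (0.86 ± 0.090).

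Most sulfate promoters hold the E-box CACGTG, which Cbf1 binds in this pathway and Pho4 in phosphate uptake. It was present in 9 of 10 sulfate promoters, in 6.29% of all promoters and in 13.2% of those of genes at least 2-fold lower. A match to the Met31 and Met32 motif (AAACTGTGG) was found in 0.864% of all promoters and 4.86% of the lower set. The 3 sulfate genes with the largest falls are shown with the E-box in capitals; SUL2 and MET3 hold a second E-box, in lower case, in the same stretch.
SUL2 (chrXII:323206-323271, plus strand): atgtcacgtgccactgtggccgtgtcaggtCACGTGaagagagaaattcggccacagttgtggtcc
MET16 (chrXVI:877775-877840, minus strand): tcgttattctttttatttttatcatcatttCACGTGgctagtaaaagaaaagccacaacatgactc
MET3 (chrX:455849-455914, plus strand): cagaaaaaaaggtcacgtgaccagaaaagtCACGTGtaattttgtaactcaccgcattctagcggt

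Genes for other sulfur sources went both ways. The methionine permeases MUP1 (-1.72 ± 0.15) and MUP3 (-2.04 ± 0.22) and the S-adenosylmethionine permease SAM3 (-2.07 ± 0.14) fell. IRC7, a cysteine desulfhydrase, rose (1.67 ± 0.12), at 100.2 and 106 scaled TPM against 32.7, 28.8 and 33.6, and so did JLP1, which releases sulfite from sulfonates (1.55 ± 0.21), at 57.9 and 56.8 against 15.4, 22.03 and 20.1. No library of 1 group reached the other in IRC7 or JLP1. The list's median of -0.088 was 0.14 without scaling and 0.14 with coding genes rescaled.

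Purine synthesis genes fell in 14 of 20 cases. ADE17, which makes the last steps to IMP, stood at 69.99 and 75.7 scaled TPM in the empty vector libraries and 384, 276 and 429 in WT (-2.28 ± 0.16, limma adjusted p = 3.32e-06), and ADE12 (-1.55 ± 0.21) and ADE1 (-1.78 ± 0.35) followed, the latter at -1.22 with chromosome I centred. The strain is ade2-1 in all libraries. IMD4, an IMP dehydrogenase on the branch to guanine nucleotides, rose (1.33 ± 0.25), as did the adenine deaminase AAH1 (1.04 ± 0.22). In the pyrimidine list, 2 genes rose, URA7, a CTP synthase (1.54 ± 0.27), and URA1 (1.12 ± 0.15), and 5 of 10 fell; the median of -0.22 was 0.009 without scaling and 0.012 with coding genes rescaled.

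Of 9 serine and one-carbon genes, which feed purines and methionine, 6 fell and 2 rose. Among those that fell were the cytosolic serine hydroxymethyltransferase SHM2 (-1.60 ± 0.15) and the glycine cleavage genes GCV1 (-1.52 ± 0.17), GCV2 (-1.53 ± 0.20) and GCV3 (-1.99 ± 0.31), the last at -1.43 with chromosome I centred. The paralogs of the first step of serine synthesis moved apart. SER33 stood at 70.2 and 73.3 scaled TPM in the empty vector libraries and 357, 332 and 591 in WT (-2.51 ± 0.37, limma adjusted p = 2.60e-04), and SER3 at 273 and 284 against 196, 149 and 171, a rise (0.70 ± 0.10). SER33 lies on chromosome IX and was -2.40 with it centred. Other amino acid pathways changed less. Arginine genes fell in 5 of 9 cases and histidine genes in 4 of 7, branched-chain genes rose in 3 of 11, and lysine genes rose in 2 and fell in 2 of 9. The homocitrate synthase LYS20 had a clear fall (-1.15 ± 0.21) and LYS1 a rise (0.70 ± 0.13), which was 0.81 with chromosome IX centred. The branched-chain count was 6 without scaling.

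All 9 zinc response genes fell. ZRT2, the low-affinity zinc permease, stood at 82.7 and 84.04 scaled TPM in the empty vector libraries and 314, 354 and 351 in WT (-2.01 ± 0.076, limma adjusted p = 2.14e-07), and ZAP1, the activator of the group, at 31.9 and 30.4 against 141, 161 and 102 (-2.05 ± 0.18, limma adjusted p = 1.16e-05). The high-affinity permease ZRT1 (-1.82 ± 0.18) and the vacuolar exporter ZRT3 (-1.07 ± 0.16) fell. ADH4, which is induced when zinc is low, was at 66.2 and 66.3 scaled TPM with the empty vector and 538, 278 and 309 with WT. WT library 1 was the highest for ADH4 and all 3 were above the empty vector libraries.

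Iron genes moved the other way, with 14 of 18 up and 2 down. FIT2, a cell wall mannoprotein that retains siderophore iron, stood at 109.5 and 127 scaled TPM in the empty vector libraries and 20.3, 28.7 and 30.8 in WT (2.13 ± 0.19, limma adjusted p = 1.18e-05). The siderophore transporter SIT1 (1.998 ± 0.14), the mRNA decay factor TIS11 (1.93 ± 0.16) and the ferroxidase FET3 (1.75 ± 0.16) rose, and the heme oxygenase HMX1 (-1.002 ± 0.17) and the activator AFT2 (-0.92 ± 0.11) fell. The Aft1 motif (TGCACCC) was present in 14 of 18 of these promoters and in 2.33% of all.

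THI4, which makes the thiazole of thiamine, rose from 26.8, 31.3 and 31.2 scaled TPM to 393 and 432 (3.75 ± 0.30, limma adjusted p = 5.90e-06), and 10 of 15 thiamine genes rose. THI5 (1.73 ± 0.14) and THI12 (1.42 ± 0.15) rose, but they are near-identical copies whose reads the counting could split. In the phosphate response 6 of 15 genes fell, including the acid phosphatase PHO5 (-1.10 ± 0.34) and its activator PHO4 (-0.72 ± 0.062), and the glycerophosphoinositol permease GIT1 rose (1.15 ± 0.14); the number of falls was 3 without scaling and without the second empty vector library.

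ANB1 had the largest rise of any gene named here. It encodes the form of eIF5A made without oxygen and stood at 32.4 and 30.8 scaled TPM in the empty vector libraries and 1.23, 0.878 and 1.94 in WT (3.82 ± 0.20, limma adjusted p = 9.37e-07). Its aerobic counterpart HYP2 was at 1407 and 1367 against 1983, 1535 and 1694, a difference that did not pass the test (-0.32 ± 0.14, limma adjusted p = 0.0706) and was 0.24 after quantile normalization. ROX1, the repressor of hypoxic genes, fell from 279, 309.6 and 232 to 92.4 and 77.9 (-1.67 ± 0.12, limma adjusted p = 4.74e-06). The anaerobic wall protein TIR1 (3.22 ± 0.21), the ADP/ATP carrier AAC3 (1.77 ± 0.17) and the sterol regulator UPC2 (1.26 ± 0.080) rose, while DAN4 (-1.36 ± 0.16) and the fatty acid desaturase OLE1 (-0.73 ± 0.22) fell. TIR3, on chromosome IX, rose (1.89 ± 0.17) and was 1.99 when centred. The hypoxic list as a whole had 9 of 19 up and 4 down, and its median of 0.23 was -0.005 after quantile normalization. Ergosterol genes were split, with 8 up, such as ERG3 (0.75 ± 0.12), and 12 of 27 down, such as IDI1 (-0.70 ± 0.080); their median of -0.18 was 0.049 without scaling and 0.052 with coding genes rescaled, and 5 fell without scaling.

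Genes of the cell wall changed in both directions, 8 up and 4 down of 18 mannoprotein genes. CWP2, an abundant wall protein, fell (-1.22 ± 0.12) and NCW2, another wall protein, rose from 146, 137 and 121 to 847 and 786 (2.60 ± 0.093, limma adjusted p = 1.92e-07). In the wall integrity pathway the kinase SLT2 (0.74 ± 0.072), the chitin synthase CHS3 (0.68 ± 0.094) and the yapsins YPS1 (0.74 ± 0.071) and YPS3 (1.35 ± 0.19) rose and KDX1 (-0.94 ± 0.16) and PST1 (-1.18 ± 0.17) fell.

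General stress genes, the targets of Msn2 and Msn4, mostly fell, 25 of 38, with 3 up. YGP1, a secreted glycoprotein of starved cells, stood at 511 and 515 scaled TPM in the empty vector libraries and 2914, 2641 and 2266 in WT (-2.34 ± 0.13, limma adjusted p = 1.33e-06). The exceptions were RGI1 (2.23 ± 0.25), TMA10 (1.78 ± 0.17) and HXK1. The stress element AGGGG was found in 34.6% of all promoters and in 53.5% of those at least 2-fold lower.

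Chaperone genes were more often higher than lower. BTN2, which sorts misfolded proteins, rose from 114, 124 and 126 scaled TPM in WT to 957 and 974 (2.98 ± 0.10, limma adjusted p = 1.72e-07), and the Hsp70 genes SSA3 (2.34 ± 0.20) and SSA4 (1.87 ± 0.19) and the Hsp90 gene HSP82 (0.79 ± 0.10) rose. Of 24 genes under the heat shock factor Hsf1 12 rose and 2 fell. One of those falls was HSF1 (-0.25 ± 0.081), and the other was SSA1 (-1.08 ± 0.31), on chromosome I, which was -0.52 when centred. The Hsf1 group held 2.31% and 2.25% of the nuclear protein-coding TPM in the empty vector libraries and 1.75%, 1.56% and 1.66% in WT.

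Genes of the unfolded protein response rose in 10 of 16 cases. KAR2, the Hsp70 of the endoplasmic reticulum, stood at 1059 and 1098 scaled TPM in the empty vector libraries and 279, 272 and 279 in WT (1.96 ± 0.10, limma adjusted p = 9.07e-07), and its exchange factor SIL1 at 137 and 141 against 43.3, 34.9 and 38.3 (1.82 ± 0.084, limma adjusted p = 6.14e-07). ULI1, a gene of unknown function induced in this response, went from 8.24, 9.21 and 8.24 to 132 and 129 (3.78 ± 0.11, limma adjusted p = 1.11e-07). The oxidase ERO1 fell (-0.54 ± 0.14). Proteasome genes fell in 17 and rose in 3 of 33 cases, with a median of -0.22 that was 0.011 without scaling and 0.014 with coding genes rescaled; 6 fell without scaling and 9 after quantile normalization. In the vacuole 12 of 15 genes fell, led by the aminopeptidase APE1, which stood at 94.7 and 92.1 scaled TPM in the empty vector libraries and 959, 1069 and 867 in WT (-3.35 ± 0.17, limma adjusted p = 8.86e-07), while the protease PRB1 rose (0.38 ± 0.10).

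Genes that vegetative haploids keep nearly silent were higher. The late sporulation list had 18 of 19 genes up and the early meiosis list 13 of 19, with medians of 1.48 and 0.66. These genes are low, and a low gene could pass the filter through the empty vector libraries alone. A filter of at least 10 TPM in 2 libraries can be passed in the same way, and under it 8 late sporulation genes rose. After quantile normalization 6 early meiosis genes rose and 3 fell, and the medians were 0.065 for early meiosis and 0.82 for late sporulation. Among the 226 coding genes in the lowest bin of mean level, described below, 71.7% rose and the median was 0.94. SPO19, a late prospore protein, stood at 27.2 and 28.9 scaled TPM in the empty vector libraries and 1.40, 1.41 and 1.18 in WT (3.64 ± 0.17, limma adjusted p = 6.43e-07). SPO13, a meiosis I regulator, was at 12.7 and 10.4 against 0.933, 1.30 and 1.32 (2.52 ± 0.14, limma adjusted p = 1.29e-06). The recombination gene REC104 was at 67.05 and 68.3 against 10.2, 11.5 and 9.71 (2.59 ± 0.15, limma adjusted p = 1.24e-06). All 3 were several times higher in both empty vector libraries. SPS1 (2.30 ± 0.16), REC102 (1.83 ± 0.12) and the spore wall glucanosyltransferase GAS2 (3.05 ± 0.22) rose, and SPS100 was the 1 late gene that fell, from 222, 208 and 338 to 51.9 and 54.9 (-2.21 ± 0.27, limma adjusted p = 7.34e-05). RME1, a repressor of meiosis, fell from 188, 178 and 246 to 82.7 and 83.2 (-1.27 ± 0.14, limma adjusted p = 3.51e-05).

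Early meiotic genes carry the URS1 element (GGCGGC), through which Ume6 represses them in growing cells. It stood upstream of 13 of 19 early meiosis genes, and in 9.64% of all promoters, 13% of those at least 2-fold higher and 13.5% of those at least 2-fold lower. The early genes with the largest rises that hold a match are shown with it in capitals; in SPO13 it lies on the opposite strand.
REC104 (chrVIII:412786-412851, plus strand): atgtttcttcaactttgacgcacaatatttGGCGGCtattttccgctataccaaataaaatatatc
SPO13 (chrVIII:131922-131987, plus strand): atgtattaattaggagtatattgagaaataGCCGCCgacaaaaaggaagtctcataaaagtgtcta
MEK1 (chrXV:996610-996675, minus strand): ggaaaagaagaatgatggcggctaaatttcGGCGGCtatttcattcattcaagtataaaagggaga
MEK1, a meiotic recombination checkpoint kinase, rose by 1.37 on the log2 scale.

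Mating genes changed in part. FUS1, needed for cell fusion, rose from 3.08, 2.78 and 2.24 to 18.04 and 16.3 scaled TPM (2.30 ± 0.15, limma adjusted p = 2.29e-06), as did the agglutinin anchor AGA1 (1.45 ± 0.16) and HO (1.59 ± 0.25). The a-factor genes MFA1 (-0.16 ± 0.18, limma adjusted p = 0.477) and MFA2 (-0.16 ± 0.15, limma adjusted p = 0.367) had overlapping groups; MFA1 was 0.070 without scaling and 0.072 with coding genes rescaled and MFA2 was 0.069 without scaling and 0.071 with coding genes rescaled. In the a-cell list 1 of 7 genes rose and 3 fell, and its median of -0.16 was 0.069 without scaling and 0.071 with coding genes rescaled. The receptor STE2 fell (-0.45 ± 0.11). Of the alpha-cell genes, MF(ALPHA)1 was at 8.13 and 7.09 against 3.69, 3.09 and 2.91 and STE3 at 6.69 and 7.00 against 4.36, 4.06 and 5.20. Both rose, by 1.03 ± 0.24 and 0.51 ± 0.10, at levels far below those of MFA2 in scaled TPM, and STE3 was -0.20 after quantile normalization. The PAU genes, a subtelomeric family of near-identical members, rose in 14 of 19 tested cases, or 7 after quantile normalization, with PAU24 (2.84 ± 0.32) and PAU5 (1.45 ± 0.13).

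**Figure D3:**
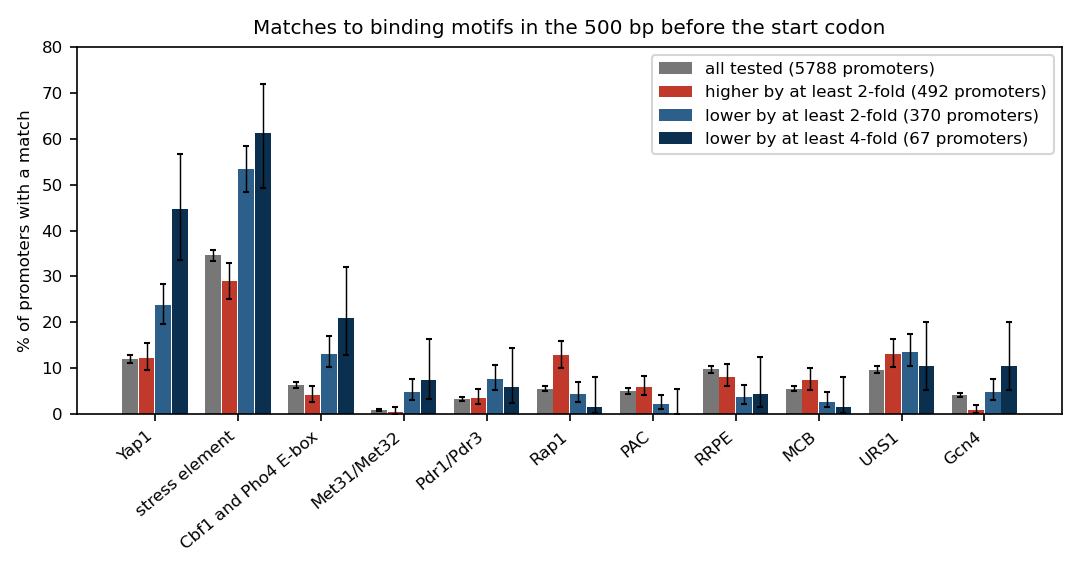
Share of promoters with at least 1 match to each motif in the 500 bp before the start codon, for all tested genes and for the genes at least 2-fold higher, at least 2-fold lower and at least 4-fold lower; error bars are 95% binomial intervals. Yap1, stress and E-box matches were more frequent in the lower set than among all promoters. Rap1 matches were more frequent in the set at least 2-fold higher (12.8%), which includes 117 of 139 ribosomal protein genes. Among genes at least 4-fold higher, which are not drawn, 6.45% held a Rap1 match, against 5.49% of all promoters.

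Low genes rose more often than abundant ones. Among 226 coding genes with a mean level under 2 on the log2(scaled TPM + 1) scale, the median difference was 0.94 and 71.7% rose. Among 60 genes above 10 on this scale the median was -0.51 and 58.3% fell. The bins between ran in order, with 0.44 at a level of 2 to 4, 0.042 at 5 to 6 and -0.10 at 8 to 10. A low gene could pass the filter through the empty vector libraries alone, so the filter tilts the lowest bin upward. In TPM as deposited, more features were detected with the empty vector. Counts at 1 TPM or more were 6415 and 6423, against 6045, 6024 and 6033 in WT. The scaling factors were 0.88 and 0.90 for the empty vector and 1.05, 1.03 and 1.06 for WT. This unscaled cut-off was therefore easier to pass with the empty vector. The 100 most abundant nuclear coding genes took 34.2% and 34.5% of nuclear protein-coding TPM against 41.6%, 37.7% and 41.9%. The share of the top 10 overlapped between groups, at 20.3% and 20.7% against 21.7%, 17.1% and 22.6%.

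Of 904 features under 1 TPM in all 3 WT libraries, 140 had at least 2 TPM in both empty vector libraries. In the other direction, of 568 features under 1 TPM in both empty vector libraries, 1 had at least 2 TPM in all 3 WT libraries. These thresholds apply to TPM as deposited, so the scaling factors tilt both counts toward detection with the empty vector. They were chosen with results known, and the larger number of WT libraries makes the second count harder to reach. The first set includes TIR1, PAU24, the spore genes SPS2 (2.08 ± 0.13) and SPS4 (1.97 ± 0.14), and RRT5, which stood at 16.4 and 14.97 scaled TPM in the empty vector libraries and 0.912, 0.548 and 0.528 in WT (3.33 ± 0.14, limma adjusted p = 4.27e-07). In that set 73 features (52.1%) matched no entry of the RefSeq annotation, against 7.74% of all tested features. Of the 498 tested features without a match, 312 rose and 26 fell, with a median of 0.81 at a median level of 1.28 on the log2(scaled TPM + 1) scale, where matched features stood at 5.64.

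**Figure D4:**
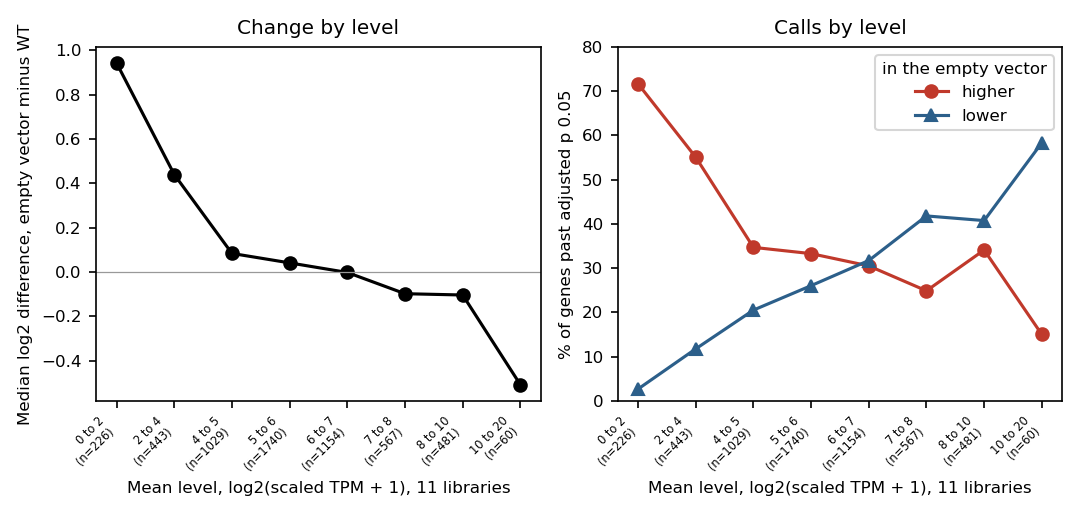
Median log2 difference (left) and share of genes called higher or lower (right) in bins of the mean level over all 11 libraries, chromosome I left out. The median falls from 0.94 in the lowest bin to -0.51 in the highest.

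Medians also varied with position on the chromosome, taken with chromosome I left out. Within 5 kb of a centromere, where cohesin is loaded most, the 94 genes had a median of -0.10, against 0.072 beyond 100 kb. Their median level was 6.04 on the log2(scaled TPM + 1) scale, against 5.62 beyond 100 kb. The 50 genes 5 to 10 kb from a chromosome end had a median of 0.58 and a median level of 3.69, which is lower than the 5.69 of genes beyond 100 kb. Genes with a convergent neighbour, the sites where cohesin gathers, had a median of 0.064 and tandem genes 0.058. By coding length the medians lay between 0.043 and 0.11. Of 15 silencing and telomere genes 4 rose, among them SIR3 (0.31 ± 0.064), and 3 fell, among them SIR4 (-0.32 ± 0.063). Their median of 0.089 was -0.13 after quantile normalization, and the number of rises was 8 without scaling.

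The 2 substitution plasmids give a second reference for some of these genes. The empty vector differed from R787G in 2564 features (39.9%) and from G1242V in 4050 (63.0%), in tests that share the 2 empty vector libraries with the comparison above. The R787G count was 1099 without the first empty vector library and 1111 without the second. SCC2 differed by -2.22 ± 0.14 from R787G and by -1.91 ± 0.14 from G1242V on the log2 scale (limma adjusted p = 6.52e-05 and 1.01e-05). Of all 6432 features, 1477 were higher and 1087 lower than R787G with the empty vector. Against G1242V, 2404 were higher and 1646 lower. The counts of gene groups against the variants stand beside these. The ribosomal protein genes, which were above WT, were below both variants, with a median of -1.08 against R787G (135 of 139 lower) and -0.74 against G1242V (113 lower). RPL9A was -1.61 ± 0.23 against R787G (limma adjusted p = 0.0012).

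Several groups that differed from WT differed in the same direction from both variants. Late sporulation genes were higher than R787G in 16 and than G1242V in 19 of 19 cases, respiratory chain genes lower in 37 and 38 of 39, zinc genes lower in 9 and 8 of 9, and daughter cell separation genes lower in 10 and 11 of 12. BTN2 was 1.31 ± 0.10 above R787G and 2.33 ± 0.10 above G1242V (limma adjusted p = 9.62e-05 and 1.24e-06). Histone genes were lower than R787G in 9 and than G1242V in 10 of 10 cases, whereas against WT 4 were lower, 1 was higher and 5 did not pass the test.

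For some genes far below WT the difference from R787G did not pass the test. GTT2 differed from R787G by 0.38 ± 0.36 (limma adjusted p = 0.428) and SUL2 by 0.70 ± 0.49 (limma adjusted p = 0.273), and these misses do not show that the levels are alike. TSA2 differed from G1242V by -1.28 ± 0.30 (limma adjusted p = 0.00466). Against R787G, the glutathione and aldehyde redox list had a median of 0.37, with 6 of 18 genes higher and 0 lower. The thioredoxin and peroxiredoxin list had 0.17 (5 of 20 higher, 2 lower) and the sulfate list 0.54 (1 of 10 higher, 0 lower). Against G1242V these 3 lists had 6, 3 and 1 higher and 6, 11 and 2 lower. Proteasome genes were higher than R787G in 18 and than G1242V in 26 of 33 cases, and lower in 0. Ribosome biogenesis genes had a median of -0.21 against R787G, where 2 of 98 were lower and 0 higher, and 0.78 against G1242V, where 91 were higher. Of 38 general stress genes, 13 were higher and 4 lower than R787G, and 7 higher and 17 lower than G1242V. Cohesin ring and regulator genes had a median of 0.094 against R787G, with 2 of 7 higher and 1 lower. Against G1242V their median was 0.31, with 4 higher and 1 lower. Kinetochore genes had a median of 0.13 against each variant. Of 32, 9 were higher and 0 lower than R787G, and 13 higher and 3 lower than G1242V. Replication genes had a median of -0.028 against R787G (1 of 40 higher, 4 lower) and 0.17 against G1242V (19 higher, 2 lower).

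**Figure D5:**
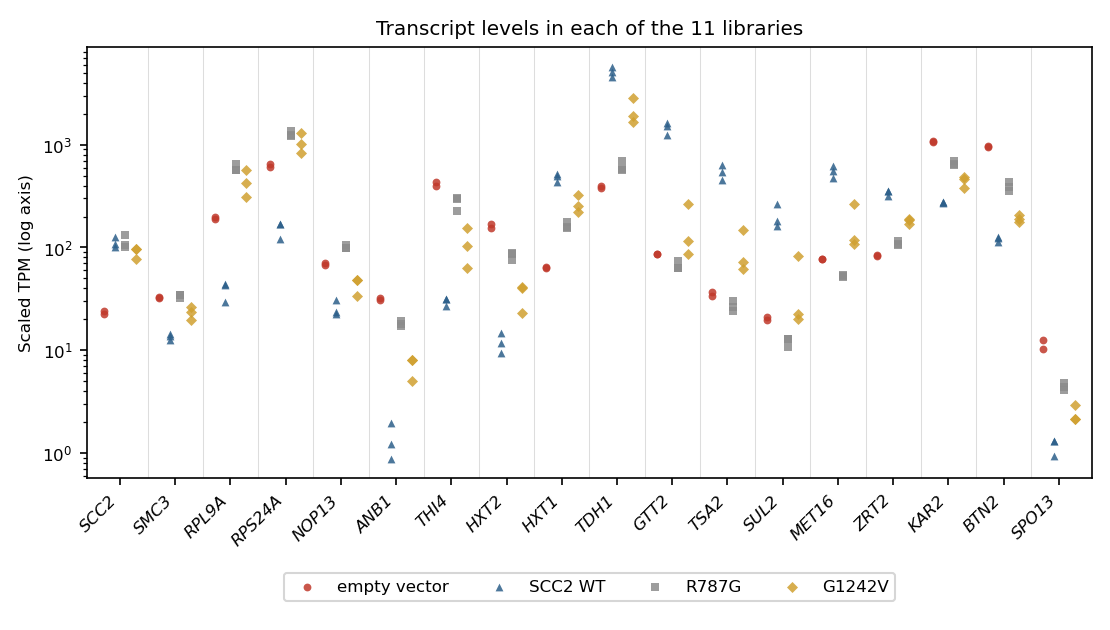
Scaled TPM of 18 genes in each of the 11 libraries on a log axis, coloured by plasmid. RPL9A and RPS24A are higher with both variants than with the empty vector, and BTN2 and SPO13 are highest with the empty vector.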

How the data were processed

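RNA-seq libraries of yeast were deposited as a table of TPM per gene, which per the submitters' processing notes and the file headers the authors made with bcl2fastq 2.17, STAR, RSEM and sacCer3; the strand setting is not given in the sources used here. RNA came from hot acid phenol extraction with rRNA depletion. Of 7036 features, 1 with shifted columns was left out. Of the 7035 used, 955 matched no RefSeq entry. TPM were scaled by median of ratios, log2-transformed with a pseudocount of 1, filtered at 1 TPM in 2 libraries and fitted in limma 3.58.1 (R 4.3.3, trend) over all 11 libraries. The fit was tested on simulated data. With 2 against 3 libraries the smallest exact p of a single value is 0.1, so shares carry no test. Same-numbered libraries showed no shared deviation from their group means (correlations of -0.0368 and -0.0455 over 2 pairs) and were treated as unpaired. With 2 empty vector libraries these correlations are not independent. Motifs were exact matches on both strands in 500 bp upstream of the start codon, with Wilson 95% intervals in the plot. The rule for named genes gave 477: all members of lists of 12 or fewer, the 4 largest rises and falls called in longer lists, and the 25 largest non-overlapping rises and falls with at least 10 scaled TPM, and genes of the genotype. The text describes 247 of them as examples, chosen with their values known. Lists, motifs, thresholds and bins were chosen with earlier results of these data known. Alternatives changed the scaling, pseudocount, filter, fit and libraries. Python 3.11.15, pandas 2.3.3, scipy 1.17.1 and matplotlib 3.10.9 were used.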

Additional observations from a re-analysis of the deposited data

How the results depend on the processing

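The number of genes higher stayed within 1.5 times of 2366 under every alternative run, and the number lower moved from 1621 to 950 without scaling (TPM as deposited) and 901 with coding genes rescaled. A pseudocount of 5 left 667 of 1070 genes at least 2-fold apart. Leaving out 1 library at a time gave 2976 to 4119 genes differing from WT, 1734 to 2449 higher, 1006 to 1129 at least 2-fold apart, 1099 to 2875 differing from R787G and 2922 to 4223 from G1242V. A fit of only the empty vector and WT libraries gave 3384 genes, 2025 higher and 1359 lower, in place of 3987. With only the empty vector and R787G libraries the fit gave 4109 genes in place of 2564. The cause of these changes was not tested. With replicate numbers as a block, 3857 genes differed from WT, 2281 higher and 1576 lower. No count of these comparisons moved by over 1.5 times under the block. Against all features as denominator, the ribosomal protein share differed by 4.55 percentage points in place of 5.68 and the glycolysis share by -3.62 in place of -4.46. With all called genes in place of those past 2-fold, matches in lower genes fell to 16.6% for Yap1, 43.9% for the stress element, 9.87% for the E-box and 1.96% for Met31 and Met32. In higher genes they were 6.7% for Rap1, 13.4% for RRPE and 9.47% for URS1.

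Of the 247 genes named with values, 9 changed sign under an alternative and 28 lost their call under at least 1 alternative. The call was lost for 11 genes in the fit of only the groups compared and for 10 after quantile normalization. Signs changed for SMC4 (0.021 without scaling and 0.024 with coding genes rescaled), MFA1 (0.070 without scaling and 0.072 with coding genes rescaled), MFA2 (0.069 without scaling and 0.071 with coding genes rescaled), RIO1 (0.013 without scaling and 0.015 with coding genes rescaled), STE3 (-0.20 after quantile normalization), HYP2 (0.24 after quantile normalization), PDC1 (0.20 after quantile normalization), COX1 (0.35 after quantile normalization) and GTO3 (-0.40 after quantile normalization). Chromosome I differs among the WT libraries, the read depth is unknown and 2 empty vector libraries set the precision.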
